A study of Homo sapiens with 4 samples.

Results

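The kinesin motor genes were examined in NCI-H929, an established line of human multiple myeloma. They were picked by name as the rows of the count table called KIF with a number and an optional letter A to C, together with KIFC1, KIFC2 and KIFC3. The rule found 42 of 56809 genes and used no measured value. By known role, 14 were placed among the mitotic kinesins, 15 among the transport kinesins and 13 in neither class. Rule and classes were chosen with earlier results of these data known, so they were not set blind. After a filter on low counts, 37 of the 42 could be tested: 12 mitotic, 14 transport and 11 other kinesins.

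Poly(A) RNA was sequenced from cells that all expressed the nuclease Cas9 and had passed 3 days of puromycin selection, followed by doxycycline at 0.5 ug/ml for 24 h. Of the 4 libraries, 2 came from cells carrying a construct for knockout (KO) of BCL7A upon doxycycline and 2 from control cells, which the protocol gives a control construct and the titles call wild type. The sources used here do not say whether the KO cells were a clone or a pool, or whether replicates were grown separately. The p-values therefore rest on a spread between libraries that may be technical. BCL7A is a subunit of BAF chromatin remodelling complexes, and the comparison asks how its loss changes transcription in myeloma cells.

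Kinesins are motor proteins that turn ATP into force on microtubules. Most walk towards the growing plus end, a few towards the minus end, and some do not walk but take microtubules apart at their tips. The mitotic kinesins build the spindle, align the chromosomes and split the cell, and their mRNAs are known to peak late in the cell cycle in many cell types. The transport kinesins carry vesicles, organelles and ciliary cargo, and several of them are best known from neurons.

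Total counts were 38671744 and 40799624 for the KO and 17567202 and 20153596 for the controls; the KO libraries were thus the deeper ones. BCL7A mRNA was 1.31 and 1.19 CPM (counts relative to library size, scaled with TMM factors) in the KO libraries and 42.9 and 45.7 CPM in the controls (adjusted p = 3.51e-25 by edgeR's quasi-likelihood test). Every one of 9 plasma cell markers was higher in the KO libraries, their summed level being 11953 to 11965 CPM against 6697 to 6757 CPM. Of 6 tested mature B cell markers 5 were lower and 1 was higher, with sums of 34.0 to 35.8 CPM in the KO versus 190 to 195 CPM in the controls. MS4A1, which defines mature B cells, was 0.0712 and 0.978 CPM on average, while PAX5 was 0.291 and 22.3 CPM. Epithelial markers summed to 12.5 to 13.2 CPM in the KO versus 66.5 to 71.2 CPM in the controls, most of the difference being EPCAM (0 and 52.9 CPM on average). T cell, fibroblast, erythroid and myeloid markers each summed to at most 30.7 CPM in a library, and CD3D, LUM, EPB42, MPO and KRT19 were at 0 counts in all 4. Among 20 S phase genes, 13 were higher and 4 lower in the KO libraries. Over all tested genes 36.4% were higher and 39.8% lower at an adjusted p under 0.05 by edgeR. Of tested genes averaging at least 10 CPM, a level that all 20 S phase genes reached, 54.2% were higher and 31.7% lower. The part of the marker and S phase gene differences in those of the kinesins was not tested.

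Mitotic kinesins were mostly higher in the KO libraries. Of the 12 tested, 9 rose and 1 fell at an adjusted p under 0.05, and 5 of the 9 rose at least 2-fold. Over all 17885 tested genes 36.4% rose and 39.8% fell in this comparison, and 9.47% rose at least 2-fold. The median log2 fold change (log2FC, KO over control) was 0.50 over the 12, against -0.06 over all tested genes and 0.19 over the 9537 tested genes that averaged at least 10 CPM, a level that all 12 reached. Of those 9537 genes 54.2% rose and 31.7% fell. Rose and fell compare the KO with the controls and do not tell which group changed. In bulk RNA, a larger share of cells in mitosis and more mRNA per dividing cell cannot be told apart.

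Several mitotic kinesins act at the central spindle and in cytokinesis. KIF20A, which carries the chromosomal passenger complex to the central spindle in anaphase, was 112 and 111 CPM in the KO libraries and 15.8 and 15.8 CPM in the controls. The groups were far apart relative to the replicates, a 7.08-fold rise (log2FC 2.82, SE 0.05, adjusted p = 1.56e-26 by edgeR), the 87th highest log2FC of the 17885 tested genes. KIF20A lies at chromosome 5, 138178719 to 138187715 (GRCh38, plus strand). KIF23, the motor subunit of the centralspindlin complex, was 90.3 and 89.5 CPM against 27.9 and 29.9 CPM (log2FC 1.63, SE 0.05, adjusted p = 9.59e-22). RACGAP1, the partner of KIF23 in centralspindlin and named after its value was seen, rose too (log2FC 0.68, SE 0.04, adjusted p = 2.04e-14), to 99.7 from 62.4 CPM on average.

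KIF14, which acts in cytokinesis with the microtubule bundler PRC1 and citron kinase, was 58.3 and 61.7 CPM in the KO versus 26.5 and 25.6 CPM in the controls (log2FC 1.20, SE 0.06, adjusted p = 2.11e-17 by edgeR). KIF20B, a paralog of KIF20A with a role in the completion of cytokinesis, was 100 and 104 CPM against 44.1 and 47.0 CPM (log2FC 1.16, SE 0.04). KIF4A, a chromosome-bound motor that limits the overlap of midzone microtubules with PRC1, moved less, from 32.1 and 30.6 to 45.2 and 44.2 CPM (log2FC 0.51, SE 0.06). For these 3 genes both KO values lay above both control values, as was the case for 41.3% of all tested genes. KIF4A is uncertain in part, because 28.6% of the 31-base words of its longest transcript also occur in its intronless copy KIF4B. KIF4B itself had 0 and 7 counts in the KO and 0 in both control libraries and was not tested.

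Motors that act on kinetochores and on spindle microtubule ends split. KIF2C, a microtubule depolymerase that corrects wrong attachments at kinetochores, was 98.9 and 97.0 CPM in the KO versus 34.1 and 37.8 CPM in the controls, a 2.71-fold rise (log2FC 1.44, SE 0.05, adjusted p = 1.03e-20 by edgeR). KIF18A, which damps chromosome movements at the metaphase plate, was 20.5 and 20.2 CPM against 16.2 and 14.1 CPM (log2FC 0.43, SE 0.08, adjusted p = 5.05e-05). Its relative KIF18B, which limits astral microtubules, was 27.3 and 26.8 CPM against 31.1 and 25.6 CPM, so that both KO values lay within the range of the controls (log2FC -0.06, SE 0.07, adjusted p = 0.455). Its sign changed with the control library left out: KIF18B was lower in the KO without control replicate 2 (log2FC -0.21, adjusted p = 0.0093) and had a log2FC of 0.08 without control replicate 1 (adjusted p = 0.364). CENPE, a kinetochore kinesin that the name rule leaves out, was 99.1 ± 3.17 CPM in the KO versus 32.8 ± 1.12 CPM in the controls (SD, n = 2; log2FC 1.60, adjusted p = 7.98e-22 by edgeR).

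The motors that set the distance between spindle poles differed in direction. KIF11, also called Eg5, slides antiparallel microtubules apart to separate the poles and was 104 and 111 CPM in the KO against 79.1 and 75.0 CPM in the controls (log2FC 0.48, SE 0.04, adjusted p = 3.78e-11 by edgeR). KIF15, which can take over part of the work of KIF11, was the mitotic kinesin that fell, from 29.0 and 27.8 to 17.9 and 19.1 CPM (log2FC -0.61, SE 0.07, adjusted p = 9.24e-09). Thus the KO libraries held more KIF11 and less KIF15 mRNA, with no overlap for either gene. Of all tested genes 41.3% had both KO values above both control values, and 46.1% had both below. KIFC1, a minus-end-directed motor that gathers spindle poles and extra centrosomes, was 57.8 and 55.0 CPM against 55.3 and 57.5 CPM (log2FC -0.002, SE 0.05, adjusted p = 0.977), and its groups overlapped. The chromosome-arm motor KIF22 rose slightly, to 79.8 and 82.0 from 71.7 and 69.1 CPM (log2FC 0.20, SE 0.04, adjusted p = 7.76e-05), a call that was lost with upper-quartile factors (log2FC 0.07, adjusted p = 0.136). KIF2B, known mainly from testis, had 0 counts in all libraries, which allows up to 0.0416 CPM in the KO versus 0.0723 CPM in the control group at 3 counts per group (counting error only).

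**Figure D1:**
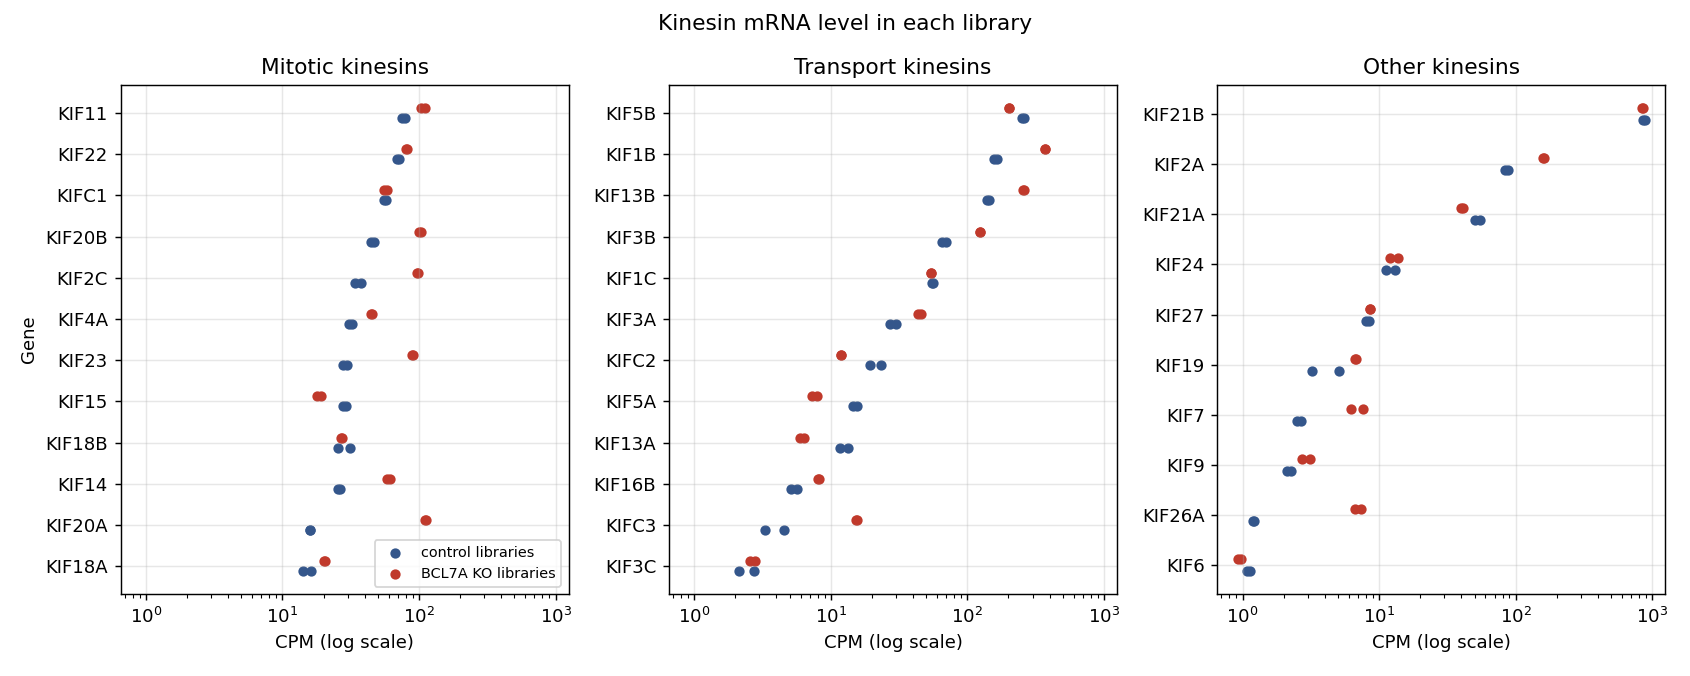
Points give the level of each kinesin gene averaging at least 1 CPM in each of the 4 libraries (red, 2 BCL7A KO libraries; blue, 2 control libraries), on a log CPM axis, by class. KIF20A stands at 15.8 CPM in both controls and at 111 to 112 CPM in the KO libraries, whereas KIFC1 and KIF18B overlap.

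Kinesin promoters are shown next with the motifs that late cell cycle genes are known to share. The part of these motifs in the differences was not tested. The motifs searched, on both strands, were CCAAT, the box bound by NF-Y, and the cell cycle genes homology region (CHR), written as TTTGAA or TTCGAA, which the MuvB complex binds with B-MYB and FOXM1 or as part of DREAM. Windows ran from 250 bases before to 50 bases after each start site (RefSeq, GRCh38.p14) and were found for 34 of the 42 genes. The 150 bases before the start are printed below for the largest rise (KIF20A), for KIF23, KIF11 and KIF18A, which rose and hold both motifs, for KIF15, which fell, for KIF2C, which rose and holds neither, and for a transport kinesin that rose (KIF3B) and one that fell (KIF5B). Capitals mark every match to either motif, on either strand.
KIF20A (chr5:138178962-138179111, plus strand): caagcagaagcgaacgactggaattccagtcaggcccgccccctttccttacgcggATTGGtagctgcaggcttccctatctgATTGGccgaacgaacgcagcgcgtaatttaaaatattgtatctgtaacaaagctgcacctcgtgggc
KIF23 (chr15:69414199-69414348, plus strand): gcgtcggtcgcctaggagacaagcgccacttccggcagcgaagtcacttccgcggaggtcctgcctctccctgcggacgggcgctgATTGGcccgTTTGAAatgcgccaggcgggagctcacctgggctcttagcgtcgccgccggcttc
KIF11 (chr10:92592980-92593129, plus strand): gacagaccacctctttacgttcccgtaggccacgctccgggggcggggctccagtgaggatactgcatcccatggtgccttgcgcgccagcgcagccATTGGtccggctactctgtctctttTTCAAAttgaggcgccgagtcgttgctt
KIF18A (chr11:28108157-28108306, minus strand): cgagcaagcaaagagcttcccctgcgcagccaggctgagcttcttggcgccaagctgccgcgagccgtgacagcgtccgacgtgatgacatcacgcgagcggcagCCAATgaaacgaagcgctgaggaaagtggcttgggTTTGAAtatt
KIF15 (chr3:44761644-44761793, plus strand): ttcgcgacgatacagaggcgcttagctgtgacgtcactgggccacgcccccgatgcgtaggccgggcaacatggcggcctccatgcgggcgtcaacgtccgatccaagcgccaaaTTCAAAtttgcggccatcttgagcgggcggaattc
KIF2C (chr1:44739687-44739836, plus strand): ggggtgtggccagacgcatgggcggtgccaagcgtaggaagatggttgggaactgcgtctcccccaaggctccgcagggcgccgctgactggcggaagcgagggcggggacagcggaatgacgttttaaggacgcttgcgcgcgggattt
KIF3B (chr20:32277501-32277650, plus strand): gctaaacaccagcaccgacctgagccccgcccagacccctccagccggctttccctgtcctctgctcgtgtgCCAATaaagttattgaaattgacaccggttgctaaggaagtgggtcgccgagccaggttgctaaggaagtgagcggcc
KIF5B (chr10:32056426-32056575, minus strand): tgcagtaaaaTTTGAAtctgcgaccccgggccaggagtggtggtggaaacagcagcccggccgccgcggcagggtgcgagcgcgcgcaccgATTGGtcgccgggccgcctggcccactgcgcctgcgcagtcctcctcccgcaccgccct

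A CHR match was present in 12 of 15 windows of mitotic kinesin genes (80.0%; 11 of 14 genes), in 1 of 16 windows of transport kinesin genes (6.25%; 1 of 11 genes) and in 16.4% of all 35116 windows of the same length. CCAAT was present in 11 of 15, 5 of 16 (31.3%) and 34.6%, respectively, and both motifs in 10 of 15, 1 of 16 and 6.38%. Both motifs stood together in the windows of KIF11, KIF14, KIF18A, KIF20B, KIF22, KIF23 and KIF4A, which rose. They also stood together in those of KIF18B and KIFC1, which passed the test in neither direction, and of KIF4B, which was not tested. Outside the mitotic class both stood in the window of KIF5B, which fell. Both also stood in that of KIF24, which passed in neither direction, the only such window of 12 for the other kinesins. In KIF23 the CCAAT match begins 64 bases and the CHR match 55 bases before the start. In KIF15 a CHR match lies 35 bases before the start and the window holds no CCAAT. KIF20A, with the largest rise, holds 2 CCAAT matches, 94 and 67 bases before the start, and no CHR match in this window. GENCODE 29 places the start of KIF20A 393 bases further upstream. Its starts also lie upstream for KIF18A (152 bases), KIF23 (103) and KIF15 (77), and downstream for KIF11. Windows and distances therefore depend on the annotation. A match describes letters in a window and does not show binding.

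Transport kinesins moved in both directions. Of 14 tested, 6 rose and 5 fell, 2 of each at least 2-fold. Over all tested genes 36.4% rose and 39.8% fell, with 9.47% and 23.5% at least 2-fold. The median log2FC was 0.23, with 0.394 when control replicate 1 and 0.0571 when control replicate 2 was left out. The class is therefore close to the background in both directions. In the mitotic class 9 of 12 rose, beside 54.2% of the tested genes averaging at least 10 CPM. The difference between the classes was not tested. Among the 5 that fell, KIF1A rests on few counts, 7 and 2 in the KO and 9 and 7 in the control libraries (log2FC -1.59, SE 0.69, adjusted p = 0.0397 by edgeR). Its call was lost in 8 alternatives, including each in which 1 library was left out (adjusted p = 0.0589 to 0.424). Its log2FC was -2.72 without KO replicate 1 and -0.93 without KO replicate 2.

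**Figure D2:**
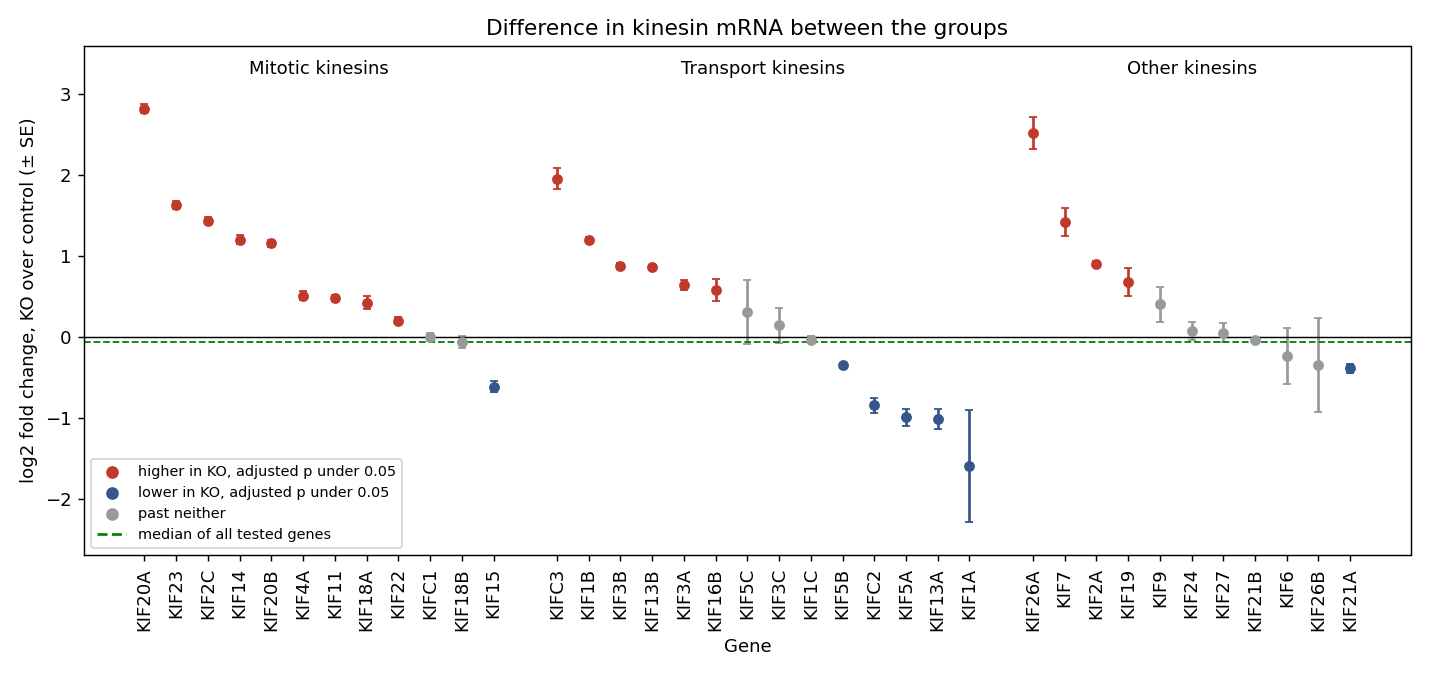
Points give the log2 fold change (KO over control, edgeR) with its SE for the 37 tested kinesin genes by class, in red or blue where the adjusted p was under 0.05, with a dashed line at the median of all tested genes (-0.06). Of the mitotic kinesins only KIF15 lies in blue, while the transport kinesins run from KIFC3 at 1.96 to KIF1A at -1.59.

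The KIF1 and KIF13 motors carry vesicles and organelles singly or as dimers. KIF1B, a carrier of mitochondria and vesicles, was 367 and 369 CPM in the KO versus 164 and 156 CPM in the controls, a 2.30-fold rise (log2FC 1.20, SE 0.03, adjusted p = 1.14e-23 by edgeR). It had the most counts of the transport kinesins in the KO libraries. KIF1C, a vesicle motor of broad expression, was 54.5 and 54.3 against 55.3 and 55.9 CPM (log2FC -0.03, SE 0.05, adjusted p = 0.558). KIF13A and KIF13B, close paralogs, went opposite ways. KIF13B was 258 and 256 CPM against 144 and 138 CPM (log2FC 0.86, SE 0.03, adjusted p = 5.53e-20), whereas KIF13A, a motor of recycling endosomes, was 5.98 and 6.41 CPM against 13.4 and 11.7 CPM (log2FC -1.01, SE 0.12, adjusted p = 2.11e-08). KIF16B, a motor of early endosomes, rose to 8.14 and 8.01 from 5.07 and 5.68 CPM (log2FC 0.58, SE 0.14).

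KIF5A, KIF5B and KIF5C encode alternative heavy chains of conventional kinesin, and KIF5A and KIF5B fell. KIF5B, the form found in most tissues, was 201 and 201 CPM in the KO versus 251 and 261 CPM in the controls (log2FC -0.35, SE 0.03, adjusted p = 1.74e-11 by edgeR). KIF5A, known mainly from neurons, was 7.95 and 7.23 CPM against 14.6 and 15.5 CPM (log2FC -0.99, SE 0.11, adjusted p = 2.77e-09). KIF5C was under 1.03 CPM in each library and passed in neither direction (adjusted p = 0.483). Of the light chains that bind cargo for these motors, KLC1 and KLC2 (the latter named after its value was seen) averaged 146 and 54.8 CPM in the KO versus 142 and 55.1 CPM in the controls and passed in neither direction (adjusted p = 0.184 and 0.884 by edgeR). Of the 5 light chain and accessory genes 1 rose, KIFAP3 (log2FC 0.18, adjusted p = 0.00229), and 1 fell, KLC4 (log2FC -0.38, adjusted p = 0.00107). The shares over all tested genes were 36.4% rising and 39.8% falling.

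The heterotrimeric motor of intraflagellar transport joins KIF3A with KIF3B or KIF3C and the accessory subunit KIFAP3. KIF3B was 124 and 123 CPM in the KO versus 65.0 and 69.2 CPM in the controls (log2FC 0.88, SE 0.04, adjusted p = 7.69e-18 by edgeR). KIF3A was 43.2 and 45.6 CPM against 29.8 and 27.2 CPM (log2FC 0.64, SE 0.06, adjusted p = 1.24e-10). Both KO values of KIF3A and of KIF3B lay above both control values, as for 41.3% of all tested genes. KIF3C, at 2.12 to 2.79 CPM, overlapped between groups. Of the minus-end-directed members outside mitosis, KIFC3, a motor described in epithelial cells, rose to 15.3 and 15.5 from 3.31 and 4.55 CPM, 3.89-fold (log2FC 1.96, SE 0.13, adjusted p = 8.24e-14). KIFC2, known from neurons, fell to 11.8 and 11.8 from 23.2 and 19.3 CPM (log2FC -0.84, SE 0.09, adjusted p = 5.79e-09). KIF17, a motor of dendrites and cilia, had 1 to 7 counts in a library and was not tested.

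Of the 11 tested kinesins placed in neither class, 4 rose and 1 fell, beside 36.4% and 39.8% of all tested genes. KIF2A, a depolymerase of spindle poles and of neurites, was 159 and 162 CPM in the KO versus 88.2 and 84.0 CPM in the controls (log2FC 0.90, SE 0.04, adjusted p = 4.76e-19 by edgeR). Its exons share 428 bases (8.97%) with IPO11 on the same strand. KIF26A, an atypical kinesin without motor activity, was 6.61 and 7.31 CPM against 1.19 and 1.22 CPM, a 5.76-fold rise (log2FC 2.53, SE 0.20, adjusted p = 2.55e-12) and the second largest among the kinesins. KIF7, a ciliary regulator of Hedgehog signalling, rose to 7.60 and 6.23 from 2.48 and 2.66 CPM (log2FC 1.42, SE 0.17). Its exons share 589 bases with TICRR on the other strand, and the strand setting of the counting is not given. KIF19, which trims ciliary microtubules, rose with control values of 3.21 and 5.05 CPM and KO values of 6.72 and 6.66 CPM (log2FC 0.68, SE 0.17, adjusted p = 8.06e-04). Its log2FC was 0.40 without control replicate 1 and 1.04 without control replicate 2, and the call held in both.

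KIF21A and KIF21B are paralogs that restrain microtubule growth. KIF21B was 838 and 848 CPM in the KO versus 883 and 850 CPM in the controls (log2FC -0.04, SE 0.02, adjusted p = 0.153 by edgeR). Leaving out control replicate 2 gave a fall (log2FC -0.08, adjusted p = 0.00117), and so did upper-quartile factors, a stricter filter and thinned KO libraries. KIF21A fell, to 41.0 and 39.4 from 55.0 and 50.3 CPM (log2FC -0.39, SE 0.05, adjusted p = 2.45e-07). KIF24, KIF27, KIF9, KIF6 and KIF26B passed in neither direction (smallest adjusted p = 0.0871, for KIF9), and 41.5% of the 31-base words of KIF27 also occur in other genes. KIF12 had 3 and 2 counts in the KO and 0 in the control libraries, and KIF25 had 0 in the KO and 2 and 1 in the control libraries.

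Compared between genes per kilobase of the longest transcript, KIF21B held the highest level in both groups, at 85.2 ± 0.710 CPM per kb in the KO and 87.5 ± 2.37 CPM per kb in the controls (SD, n = 2). In the control libraries KIF5B (43.6 ± 1.22), KIF22 (28.1 ± 0.731), KIF2A (25.6 ± 0.891) and KIFC1 (20.9 ± 0.582 CPM per kb) followed, each apart from its neighbour by more than their SDs. In the KO libraries KIF2A (47.8 ± 0.612) came next, followed by KIF20A (35.0 ± 0.257), KIF1B (34.5 ± 0.123) and KIF5B (34.3 ± 0.0273 CPM per kb), of which neighbours differed by little more than their SDs. KIF20A was thus the mitotic kinesin with the highest level per kilobase in the KO libraries and took place 19 of 42 in the control libraries, at 4.94 ± 0.00747 CPM per kb. Which transcripts of each gene the cells make is not in the table, so these levels depend on the length chosen.

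Within a library, the shares of the classes do not depend on the scaling between libraries. Mitotic kinesins held 27.1% and 27.2% of all kinesin counts in the KO libraries and 20.2% and 20.4% in the control libraries. Transport kinesins held 36.7% and 36.5% against 33.7% and 34.3%, and the others 36.2% and 36.2% against 46.1% and 45.4%, most of the last being KIF21B. Counts of mitotic over transport kinesins came to 0.738 and 0.745 in the KO and 0.599 and 0.594 in the control libraries. Without KIF20A the ratios were 0.636 and 0.644 against 0.578 and 0.573, and without KIF1B they were 1.11 and 1.12 against 0.760 and 0.746. The KO libraries were higher in each case, by a smaller margin without KIF20A. With 2 libraries against 2, an exact two-sided permutation test cannot go below p = 0.333, so none is given.

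**Figure D3:**
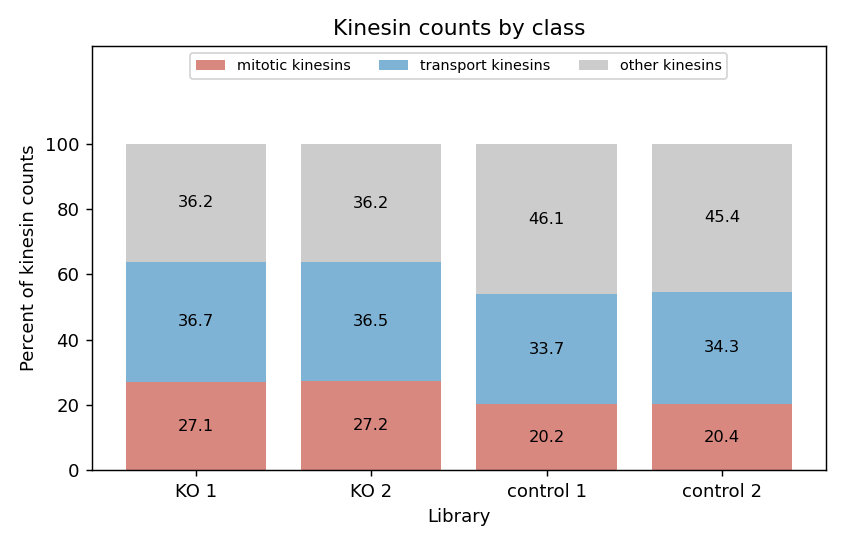
Bars split all kinesin counts of each library into mitotic, transport and other kinesins, in percent of kinesin counts. The mitotic share is 27.1% and 27.2% in the KO libraries and 20.2% and 20.4% in the control libraries.

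Most genes for the spindle proteins that mitotic kinesins work with rose as well. Of 22 spindle partners, 20 rose and 1 fell, 11 of them rising at least 2-fold, the median log2FC being 0.93. All 22 averaged at least 10 CPM, and of all tested genes at that level 54.2% rose and 31.7% fell. Over all tested genes 9.47% rose at least 2-fold. The list was chosen with earlier results of these data known and is no independent support for the rise of the kinesins. TPX2, which activates Aurora A on the spindle, was 298 ± 2.51 CPM in the KO versus 105 ± 1.55 CPM in the controls (SD, n = 2; log2FC 1.50, adjusted p = 2.17e-25 by edgeR). AURKA itself was 121 against 28.2 CPM on average (log2FC 2.10), PLK1 140 against 43.0 CPM (1.71) and HMMR, a spindle-bound protein, 100 against 19.7 CPM (2.36). NUMA1, which gathers microtubule minus ends at the poles with dynein, was the partner that fell, to 120 from 182 CPM (log2FC -0.59, adjusted p = 5.25e-16; named after its value was seen).

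Among 17 genes for the transcription factors of G2 and M phase promoters, 11 rose and 3 fell, with a median log2FC of 0.43. All 17 averaged at least 10 CPM, and of all tested genes at that level 54.2% rose and 31.7% fell. The list was thus not far from genes of like level, and the difference was not tested. RBBP4, a MuvB subunit, rose to 394 from 186 CPM on average (log2FC 1.08, adjusted p = 3.49e-23 by edgeR), and MYBL2, which encodes B-MYB, to 291 from 185 CPM (log2FC 0.65, adjusted p = 8.49e-18). E2F2 rose to 152 from 48.0 CPM (log2FC 1.66), whereas TFDP1, the dimer partner of E2F proteins, fell to 81.8 from 166 CPM (log2FC -1.02, adjusted p = 9.30e-21). FOXM1, which acts at the CHR with MuvB, fell to 55.3 from 94.7 CPM (log2FC -0.78, adjusted p = 4.13e-16), and the MuvB subunit gene LIN52 fell to 18.8 from 34.5 CPM (log2FC -0.87). FOXM1 and LIN52 were named after their values were seen.

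Dynein, with its cofactor dynactin, moves cargo to the minus end. Of 10 tested dynein subunits 5 rose and 3 fell, the median log2FC being 0.15. For these lists the background was 36.4% rising and 39.8% falling over all tested genes. It was 54.2% and 31.7%, with a median of 0.19, over tested genes averaging at least 10 CPM. Differences of the dynein, dynactin and adaptor lists from this background were not tested. The heavy chain gene DYNC1H1 was 749 against 721 CPM on average (log2FC 0.06, adjusted p = 0.0519 by edgeR; named after its value was seen), while DYNC1I1, an intermediate chain known mainly from neurons, fell to 0.653 from 4.90 CPM (log2FC -2.90). Of 11 dynactin genes 7 rose and 2 fell, with a median of 0.46, and the largest rise was in the capping protein gene CAPZA1, to 383 from 185 CPM (log2FC 1.05). The 22 cargo adaptor genes split evenly, 9 rising and 9 falling, with a median of 0.009. HOOK3, which links cargo to dynein, rose to 853 from 394 CPM (log2FC 1.12), and SPAG9, also called JIP4, which binds kinesin light chain and dynactin, fell to 87.7 from 173 CPM (log2FC -0.98).

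**Figure D4:**
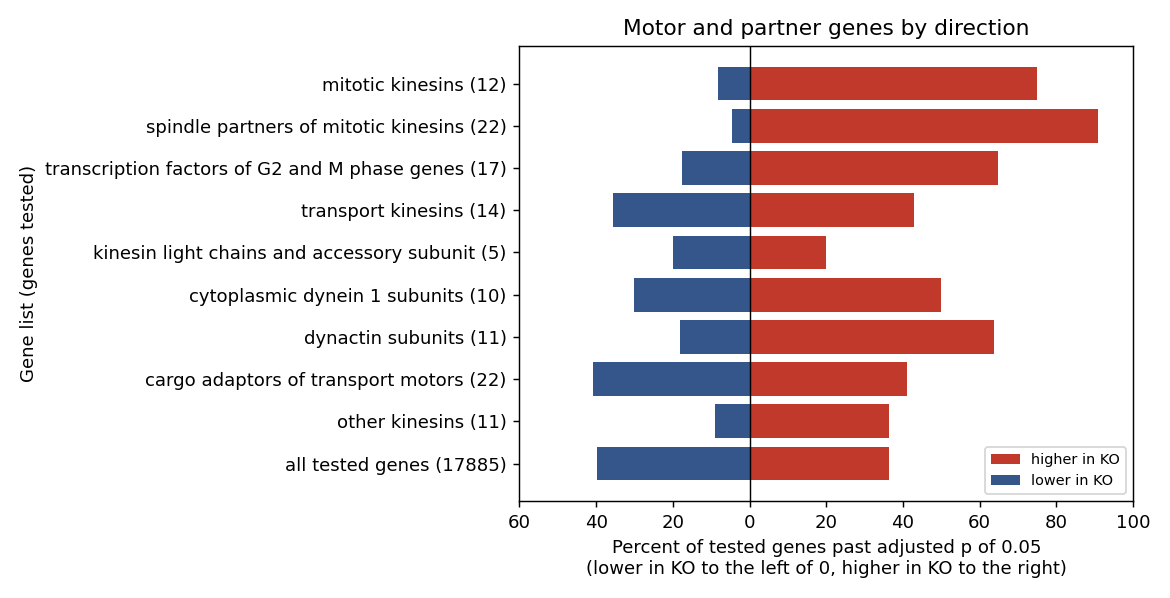
Bars give the percent of tested genes in each list that passed an adjusted p of 0.05, lower in the KO to the left of 0 and higher to the right, with all 17885 tested genes at the bottom (36.4% higher, 39.8% lower). Mitotic kinesins (9 of 12 higher) and spindle partners (20 of 22) reach furthest to the right among the motor and partner lists plotted.

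Positions along the genome were set beside the changes, because genes on chromosome 5 were mostly higher in the KO libraries, the median log2FC being 0.74 over 411 protein-coding genes averaging at least 10 CPM. KIF20A, KIF2A and KIF3A lie on it, and the 40 nearest such genes had medians of 0.82, 0.84 and 0.88. KIF2A (0.90) and KIF3A (0.64) were near their neighbours, and KIF20A (2.82) was well above. KIFC2 (-0.84) was near the median of its 26 neighbours (-0.83) at the end of chromosome 8. Some genes that rose on other chromosomes were also near the medians of their 40 neighbours. These were KIF11 (0.48 and 0.39), KIF18A (0.43 and 0.35) and KIF19 (0.68 and 0.67). KIF2C (1.44) and KIFC3 (1.96) lay above neighbours with medians of 0.70 and 0.65. By contrast, the 40 neighbours of KIF23 had a median of 0.09, those of KIF1B one of 0.11, and the 34 neighbours of KIF26A one of -0.39. The part of position in these differences was not tested. Exons of KIF20A also share 132 bases with BRD8 and 68 with CDC23 on the other strand, which is 3.34% and 1.72% of its exon bases.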

How the data were processed

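Kinesin mRNA was measured in 4 libraries. The authors deposited 1 table of estimated counts for genes, which the submitters' processing notes credit to Salmon 0.12 and GRCh38; its values are whole. The sources used here give neither annotation nor strand setting. All 56809 gene names occur in GENCODE 29 (GRCh38), which gave coordinates, lengths and overlaps. A further 92 ERCC spike-in rows, with at most 5 counts in a library, were left out.

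Genes were filtered with filterByExpr, scaled with TMM and tested with edgeR 4.0.16 (glmQLFit with robust=TRUE, glmQLFTest) without covariates, with Benjamini-Hochberg adjustment over 17885 genes and a threshold of 0.05. The SE is the absolute log2 fold change over the square root of F. Chi-square between replicates, divided by its degrees of freedom, was 1.79 (KO) and 2.43 (control), above sampling noise, and the biological coefficient of variation was 2.32%. Members, classes and lists were chosen with earlier results of these data known. Every kinesin gene is accounted for; those with a mean of at least 1 CPM could be given in full, and of each partner list up to 4 genes by smallest p, with CENPE and BCL7A. In simulated counts over 17312 genes at these library sizes, a 1.2-fold change was found for 24 of 50 genes, a 1.5-fold change for 46 of 50 and a 2-fold change for 50 of 50. Changes were placed only in genes expected at more than 50 counts, and the same spread between replicates was assumed for all genes. These results therefore do not cover genes with few counts. Promoter windows came from RefSeq. Alternatives included DESeq2 1.42.0, limma-voom (limma 3.58.1) and a stricter filter (10 counts on average and 1 CPM in 2 libraries as minimums).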

Additional observations from a re-analysis of the deposited data

How the results depend on the processing

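The counts of mitotic kinesins that rose (9) and of transport kinesins that rose (6) or fell (5) stayed within 1.5 times with RLE or upper-quartile factors, without a filter, with a stricter one, with DESeq2, limma-voom, no robust shrinkage, a threshold of 0.01, KO libraries thinned to the mean depth of the controls, the replicate block and each library left out (a lone library is then assumed to vary like the other group). Mitotic kinesins that fell numbered 1, but 3 with upper-quartile factors, where KIFC1 and KIF18B were also lower, and 1 to 2 with 1 library left out. Upper-quartile factors moved the median of all tested genes by -0.13, so changes smaller than this are relative to the scaling. The median log2 fold change of the mitotic kinesins was 0.36 with upper-quartile factors, 0.60 with no filter, 0.44 with the stricter filter and 0.44 to 0.53 with 1 library left out; that of the transport kinesins ranged from 0.0571 to 0.394 with 1 library left out, control replicate 2 giving the lowest and control replicate 1 the highest value. Some genes that were not called changed sign. Without a filter, the log2 fold change was 0.022 for KIF18B, 0.053 for KIF1C, 0.0455 for KIF21B and 0.0819 for KIFC1. It was -0.0583 for KIF24 and -0.0786 for KIF27 with upper-quartile factors, -0.00309 for KIF27 with the stricter filter and 0.000916 for KIFC1 with DESeq2. With 1 library left out it ranged from -0.215 to 0.075 for KIF18B, from -0.0455 to 0.181 for KIF24, from -1.07 to 0.173 for KIF26B, from -0.0492 to 0.335 for KIF3C and from -0.0316 to 0.0456 for KIFC1. KIF20A, which was called, also moved under these settings. Its log2 fold change was 2.82 in the main fit and 2.91 without a filter. It was 2.69 with upper-quartile factors and 2.77 with the stricter filter. The cause was not tested.

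Replicate numbers did not pair the libraries (correlation of replicate differences between the groups -0.009). With the replicate number as a block, 13287 genes passed instead of 13629, with 9 mitotic kinesins higher and 1 lower and 6 transport kinesins higher and 4 lower; KIF1A was the call lost (adjusted p = 0.0543). Low counts limit KIF1A, KIF5C, KIF26B and the 5 genes not tested.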
